A study of Mus musculus with 6 samples.

Results

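NF-kappaB subunits and the proteins that hold them back were followed in As4.1 cells, a mouse kidney tumour line studied as a model of renin-producing cells, after treatment with an interleukin, hydrogen peroxide or vehicle. The list held 10 genes, 5 subunits (Nfkb1, Nfkb2, Rel, Rela, Relb), 3 classical inhibitors (Nfkbia, Nfkbib, Nfkbie) and 2 nuclear relatives of the inhibitors (Nfkbiz, Bcl3). Their probe sets were those that the array annotation assigned to 1 of these genes alone, which gave 18 probe sets of 9 genes among 45037 probe sets on the array that were not controls. Nfkb1 is not analysed here. Each group held 2 samples of the same line, 1 Affymetrix array per sample and 6 arrays in all. The sample titles number them 1 and 2 and do not say whether they were separate cultures. The interleukin group received a cytokine that the labels do not name further, the hydrogen peroxide group received that oxidant, and the vehicle group received the carrier of the treatments. Doses and times are not given in the sources used here.

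NF-kappaB proteins bind DNA in pairs. In resting cells the classical inhibitors keep these pairs in the cytoplasm, and inflammatory cytokines such as interleukin-1 lead to phosphorylation and loss of the inhibitor, so that the pairs enter the nucleus. Several genes of the system are themselves NF-kappaB targets, which gives the pathway a built-in brake, with Nfkbia as the textbook case. Nfkbiz and Bcl3 differ from the classical inhibitors in that they act in the nucleus on pairs bound to DNA and can raise as well as lower transcription.

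The promoters of these genes were searched for the sequence that NF-kappaB binds, and stretches of those that held it are shown. RefSeq promoter windows (build GRCm38.p6, 250 bases before to 50 after the transcription start) were at hand for 7 of the members, and not for Nfkb1, Relb and Nfkbiz. The usual kappaB consensus of 10 bases, GGGRNWYYCC, was searched on both strands. In it R is A or G, Y is C or T, W is A or T, and N is any base. It was found in 5 of the 7 genes (Nfkbia, Bcl3, Rel, Nfkbie and Nfkb2) and these letters were not in the windows of Rela and Nfkbib. Of all 27025 genes with such a window 5.14% held it. The upstream stretch of Nfkbia on the minus strand, chr12:55492648-55492897, and 30-base windows of the others follow, 5′ to 3′, with each match in capitals. A longer run of capitals is a pair of overlapping matches.
Nfkbia: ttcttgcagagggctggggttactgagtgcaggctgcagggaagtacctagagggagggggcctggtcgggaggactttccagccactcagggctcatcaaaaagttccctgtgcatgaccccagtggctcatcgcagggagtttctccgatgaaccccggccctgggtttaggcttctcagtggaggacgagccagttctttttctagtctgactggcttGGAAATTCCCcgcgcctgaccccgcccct
Bcl3: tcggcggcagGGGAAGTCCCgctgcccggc
Rel: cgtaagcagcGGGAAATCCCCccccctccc
Nfkbie: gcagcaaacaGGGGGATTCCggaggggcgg
Nfkb2: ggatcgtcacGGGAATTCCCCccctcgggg

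Counting the first transcribed base as 1, with no position 0, the match in Nfkbia lay at positions -29 to -20 and that in Bcl3 at positions 3 to 12, on the minus strand at chr7:19822734-19822763 for the printed window. The Rel window was chr11:23771042-23771071 on the minus strand, the Nfkbie window chr17:45555584-45555613 on the plus strand, and the Nfkb2 window chr19:46304688-46304717 on the plus strand. Nfkb2 had 3 annotated starts, and all 3 of its windows held at least 1 match. A match describes the sequence and says nothing on whether the site was bound in these cells. Of these 5 genes, Nfkbia and Bcl3 rose under interleukin, as given below, and no probe set of Rel, Nfkbie or Nfkb2 passed. Relb and Nfkbiz, which also rose, had no window to search.

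Signals are the authors' linear MAS5 values per probe set. The mean after trimming was 1500.01 for all 6 arrays, and array medians ran from 192.2 to 232.3. Groups were compared with limma on log2 signals over the 22519 probe sets whose mean log2 signal was at or above the median, and 17 of the 18 member probe sets were among them. A change is called where the Benjamini-Hochberg adjusted p over all 22519 was under 0.05. With 2 arrays per group, their number limits the precision, and an exact permutation test of a single probe set could not go below p = 0.333. Signals were compared between arrays within a probe set. Levels of different probe sets were set against each other by the filter. They were also compared in choosing the brightest tested probe set of a gene for the lists of other genes. The marker sums below add the signals of different probe sets, the brightest of each gene, tested or not. All 17 tested member probe sets read 398.5 or more on the vehicle arrays, above the lowest mean signal tested of 193.7. In these bulk samples, fewer cells of a type and less RNA per cell cannot be told apart.

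The array-wide checks moved with treatment, and their part in the results was not tested. The ratio of 3' to 5' beta-actin control signal, a measure of RNA integrity, was 1.46 and 1.55 with interleukin, 1.35 and 1.32 with hydrogen peroxide, and 1.22 and 1.26 with vehicle. For the transferrin receptor control it was 3.05 and 3.95 with interleukin, 3.54 and 2.30 with hydrogen peroxide, and 1.85 and 2.14 with vehicle. For the pyruvate carboxylase control it was 2.30 and 2.46 with interleukin, 2.89 and 2.03 with hydrogen peroxide, and 1.66 and 1.59 with vehicle. For Gapdh it lay between 0.825 and 0.873 on all arrays. Of 8 renin-lineage markers on the array 5 were bright enough to test (Abcc9, Acta2, Crip1, Kcnj8 and Pdgfrb), and Gja4, Gja5 and Rgs5 were dim. The summed signal of all 8 was 45061 and 40131 with interleukin, 32417 and 28667 with hydrogen peroxide, and 38237 and 36298 with vehicle. With interleukin Acta2 (log2 change 0.99) and Pdgfrb (0.56) rose and Crip1 (-0.51) fell. With hydrogen peroxide Kcnj8 (-1.65), Abcc9 (-0.91) and Crip1 (-0.66) fell. Renin itself is not analysed here. Of 9 leukocyte markers on the array, 3 were bright enough to test (Cd14, Cd68 and Csf1r). The summed signal of all 9 was 6627 and 7419 with interleukin, 4792 and 4569 with hydrogen peroxide, and 3906 and 3922 with vehicle. Most of that sum was Cd14, at 2626.8 and 2562.6 with vehicle. Cd14 and Cd68 rose with interleukin, by 1.87-fold and 2.38-fold, and Cd68 rose with hydrogen peroxide by 2.06-fold. Csf1r lay between 416.5 and 636.1 on all arrays and passed with neither treatment. Of the dim myeloid markers, Adgre1 read 155.5 and 253 with interleukin and 129.2 and 101.3 with vehicle. Lyz2 lay between 151.4 and 202.4 on all arrays, and Itgam between 13.8 and 86.5. The lymphoid and pan-leukocyte markers Cd3e, Cd79a and Ptprc lay between 9.9 and 125.7 on all arrays, below that lowest mean, and no marker was listed at 0. The 6 endothelial markers summed to 8376 and 11838 with interleukin, 11635 and 10842 with hydrogen peroxide, and 13424 and 15936 with vehicle. Nearly all of that sum was Kdr, at 8068.7 and 11213.9 with interleukin and 13234.7 and 15689.7 with vehicle. Of the dim endothelial markers, Tek, Cdh5 and Pecam1 read higher on both interleukin arrays than on both vehicle arrays. For Tie1 and Vwf these groups overlapped. Kdr, the only one bright enough to test, fell by 0.60 on the log2 scale with interleukin (adjusted p = 0.0194). The 7 epithelial and tubule markers summed to between 852 and 1184 on all arrays.

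**Figure D1:**
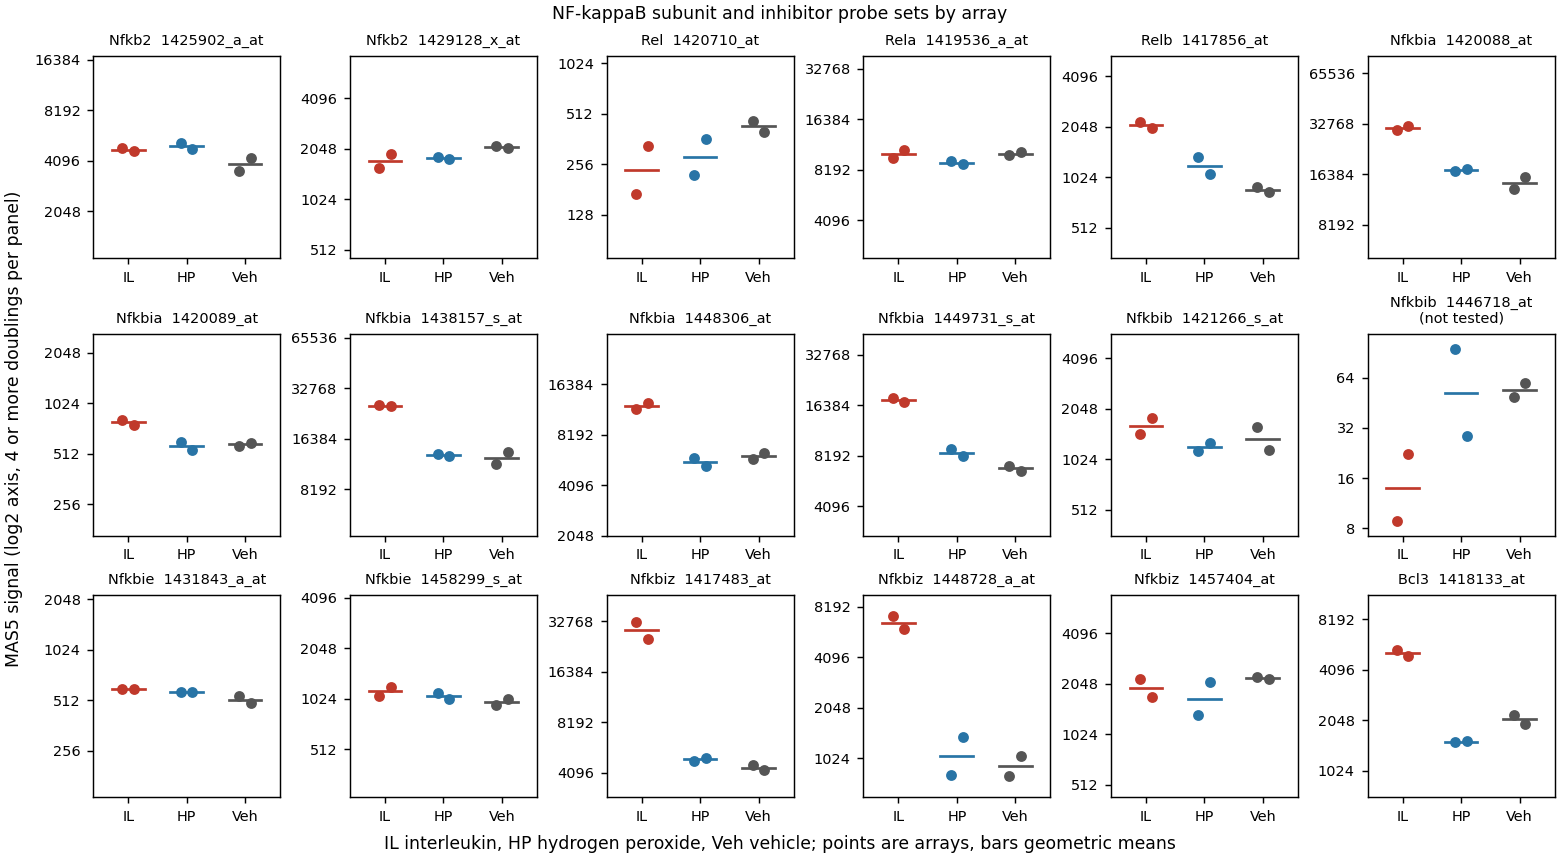
MAS5 signal (log2 axis) of each of the 18 member probe sets on every array, with interleukin, hydrogen peroxide and vehicle from left to right. Points are arrays and bars are geometric means of 2 arrays. The interleukin arrays stand above all others for Relb, Bcl3, every probe set of Nfkbia, 2 of the 3 probe sets of Nfkbiz and, by a small margin, Nfkbie 1431843_a_at.

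The first comparison, interleukin against vehicle, asked which genes of the system respond to the cytokine. Of 17 tested probe sets 8 rose and 0 fell, or 47.1%. Over all tested probe sets 16.1% were called in either direction, with 7.58% called higher and 8.52% lower. The members were chosen with earlier results of these data known, so this excess is no independent evidence. At an unadjusted p under 0.05 limma gave 10 higher and 1 lower (Rel), where 13.8% of all tested probe sets were higher and 16.3% lower at that level. With variances modelled without a trend the share of all tested probe sets called was 7.92%, and 8 member probe sets were called. The 8 belonged to 4 genes, namely the subunit Relb, the classical inhibitor Nfkbia and both nuclear members, Nfkbiz and Bcl3. The median log2 change of the 17 was 0.44, against -0.015 over all tested probe sets. Both interleukin arrays lay outside the vehicle range in 14 of the 17, 12 of them higher and 2 lower, a share of 82.4% where 59.0% of all tested probe sets did so, 27.6% higher and 31.4% lower. By role, the median log2 change was -0.012 for the 5 subunit probe sets, 0.71 for the 8 of classical inhibitors and 2.01 for the 4 of nuclear members. Of the 8 classical inhibitor probe sets 5 belong to the single gene Nfkbia, and probe sets of a gene are not independent.

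Among the subunits, Relb rose under interleukin. Relb pairs with the Nfkb2 product in the slower, non-canonical arm of the pathway. Its signal was 2198.3 and 2015.1 with interleukin, 1346.3 and 1072.4 with hydrogen peroxide, and 901 and 833.6 with vehicle. The 3 groups did not overlap, with interleukin highest and vehicle lowest. Relb averaged 2107 ± 130 with interleukin and 867 ± 47.7 with vehicle (SD, n = 2 each), a 2.43-fold difference and a log2 change of 1.28 ± 0.16 (SE, adjusted p = 0.000601).

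Rela, which encodes p65, the main activating subunit of the canonical pathway, gave no call. Its signal was 9559.8 and 10760.1 with interleukin, 9219 and 8805.1 with hydrogen peroxide, and 10031.4 and 10421.6 with vehicle. The interleukin arrays lay on both sides of the vehicle arrays, and the hydrogen peroxide arrays were the lowest. Its log2 change under interleukin was -0.012, with a 95% interval of -0.23 to 0.20, so that a change of the size seen in Relb lies outside it (adjusted p = 0.951).

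Rel, which encodes c-Rel, a subunit best known from lymphoid cells, was measured at low signal. It read 171 and 328.4 with interleukin, 221.2 and 362.3 with hydrogen peroxide, and 464.9 and 398.5 with vehicle. All 4 treated arrays lay below both vehicle arrays, and the arrays of each treatment were far apart. The log2 change under interleukin was -0.86 ± 0.38 (SE, 95% interval -1.71 to -0.01) and did not pass (adjusted p = 0.160). Leaving out single arrays moved it between -1.33 and -0.39. Without interleukin array 1 it was the smaller in size, at -0.39, and without interleukin array 2 it was -1.33.

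Nfkb2 encodes p100, which acts as an inhibitor of Relb until it is cut to the subunit p52, and its 2 probe sets pointed in opposite directions. Probe set 1425902_a_at read 4854 and 4712.8 with interleukin, 5205.5 and 4833.4 with hydrogen peroxide, and 3570.2 and 4274.5 with vehicle. Probe set 1429128_x_at read 1563.4 and 1912.6 with interleukin, 1828.7 and 1771.5 with hydrogen peroxide, and 2124.2 and 2066.4 with vehicle. In the first all treated arrays were above both vehicle arrays, and in the second all were below. Under interleukin the log2 changes were 0.29 (95% interval 0.03 to 0.56, adjusted p = 0.131) and -0.28 (-0.60 to 0.04, adjusted p = 0.228), and neither passed. The difference between the probe sets was not tested.

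Of the classical inhibitors only Nfkbia passed, and 4 of its 5 tested probe sets rose. Nfkbia encodes IkappaB-alpha, the inhibitor that is lost within the fast response and then made anew. Probe set 1449731_s_at had the largest change of the 5, with 18035.4 and 17248.7 with interleukin, 8980.3 and 8146.9 with hydrogen peroxide, and 7158.6 and 6623.9 with vehicle. The interleukin arrays stood far above the rest, and the hydrogen peroxide arrays lay slightly above the vehicle arrays. The log2 change was 1.36 ± 0.10 (SE, n = 2 per group, adjusted p = 1.11e-05), a 2.56-fold difference.

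The remaining Nfkbia probe sets differed in size. Probe set 1420088_at read 30084.7 and 31981.2 with interleukin, 17212.4 and 17743.4 with hydrogen peroxide, and 13476.8 and 15728.2 with vehicle, and rose 2.13-fold under interleukin (adjusted p = 3.54e-05). Probe set 1438157_s_at averaged 25651 ± 215 with interleukin and 12592 ± 1472 with vehicle (SD, n = 2 each), a rise of 2.04-fold. Probe set 1448306_at averaged 12099 ± 739 with interleukin and 6118 ± 329 with vehicle, a rise of 1.98-fold. In probe set 1420089_at the interleukin arrays read 821.5 and 764.3, the hydrogen peroxide arrays 602.2 and 540.4, and the vehicle arrays 574.8 and 597.4. There the interleukin arrays were again above all others, but the log2 change of 0.44 (95% interval 0.005 to 0.87) did not pass (adjusted p = 0.161). All 5 thus lay on the same side, with log2 changes from 0.44 to 1.36.

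Nfkbib and Nfkbie, which encode IkappaB-beta and IkappaB-epsilon, gave no call under interleukin. The tested probe set of Nfkbib read 1457.2 and 1805.5 with interleukin, 1141.2 and 1273.9 with hydrogen peroxide, and 1591.6 and 1158.8 with vehicle. These interleukin and vehicle arrays overlapped, and the log2 change was 0.26 with a 95% interval of -0.16 to 0.67 (adjusted p = 0.402). The other probe set of Nfkbib, 1446718_at, was too dim to be tested, at 8.9 and 22.2 with interleukin, 95 and 28.5 with hydrogen peroxide, and 48.6 and 59.6 with vehicle.

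Nfkbie had 2 probe sets with nearly the same change. Probe set 1431843_a_at read 598.7 and 595 with interleukin, 576.1 and 576.7 with hydrogen peroxide, and 543.6 and 491.5 with vehicle. Probe set 1458299_s_at read 1062.4 and 1201.6 with interleukin, 1103 and 1023.9 with hydrogen peroxide, and 933.1 and 1023.9 with vehicle. In both, the interleukin arrays lay above the vehicle arrays by a small margin. The log2 changes were both 0.21, with 95% intervals of -0.25 to 0.66 and -0.15 to 0.57 (adjusted p = 0.539 and 0.432).

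Nfkbiz, which encodes IkappaB-zeta, a nuclear cofactor known to be needed for a set of secondary inflammatory genes such as Il6 and Lcn2, changed most of all members. Probe set 1417483_at read 32295.5 and 25729.9 with interleukin, 4830.1 and 5028.7 with hydrogen peroxide, and 4526.6 and 4244.9 with vehicle. Probe set 1448728_a_at read 7199.8 and 6052.2 with interleukin, 816.9 and 1368.8 with hydrogen peroxide, and 807.5 and 1063.4 with vehicle. In both the interleukin arrays were several times above all others. The log2 changes were 2.72 ± 0.12 (SE, adjusted p = 3.61e-07) and 2.83 ± 0.23 (adjusted p = 2.9e-05), or 6.58-fold and 7.12-fold.

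The other Nfkbiz probe set, 1457404_at, went against this pair. It read 2200.7 and 1704.1 with interleukin, 1333.3 and 2106.1 with hydrogen peroxide, and 2254.1 and 2194.7 with vehicle. Here the interleukin and vehicle arrays overlapped, and the log2 change of -0.20 had a 95% interval of -0.66 to 0.26 (adjusted p = 0.565), far from the intervals of the pair, of which the lower bounds were 2.46 and 2.32. In the annotation the pair share 1 source sequence record and the probe set without a change has another. The difference was not tested, and the positions of the probes on the transcript were not used here.

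Bcl3, the other nuclear member, which binds pairs of p50 or p52 and can turn them into activators, rose under interleukin. Its single probe set read 5348.7 and 4919.3 with interleukin, 1517.1 and 1532.6 with hydrogen peroxide, and 2196.7 and 1954.4 with vehicle. The 3 groups did not overlap, and here vehicle lay between interleukin above and hydrogen peroxide below. Bcl3 averaged 5134 ± 304 with interleukin and 2076 ± 171 with vehicle (SD, n = 2 each), a 2.48-fold difference and a log2 change of 1.31 ± 0.13 (SE, adjusted p = 9.6e-05).

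Hydrogen peroxide against vehicle addressed the response of the same genes to an oxidant. None of the 17 tested probe sets passed in limma, where 5.69% of all tested probe sets were called, 3.05% higher and 2.65% lower. At an unadjusted p under 0.05 there were 5, of which 4 were higher (Relb, 1 probe set of Nfkb2 and 2 of Nfkbia) and 1 was lower (Bcl3), where 12.1% of all tested probe sets were higher and 10.3% lower at that level. The 5.69% depended on single arrays. Leaving out vehicle array 1 gave 1.04%, leaving out vehicle array 2 gave 1.18%, and leaving out hydrogen peroxide array 1 gave 1.74%. Leaving out hydrogen peroxide array 2 gave 675 called probe sets in place of 1282, and variances modelled without a trend gave 0.253%. Of the member probe sets 0 were called without that trend. Log2 changes ran from -0.60 for Rel to 0.47 for Relb, with a median of 0.056 against 0.016 over all tested probe sets. The groups did not overlap in 11 of 17 probe sets, 6 higher and 5 lower, a share of 64.7% where 55.3% of all tested probe sets did so, 29.8% higher and 25.6% lower.

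Bcl3 came closest to the threshold under hydrogen peroxide. It averaged 1525 ± 11.0 with hydrogen peroxide and 2076 ± 171 with vehicle (SD, n = 2 each), a log2 change of -0.44 ± 0.13 (SE, adjusted p = 0.0709). It passed in 3 of 16 alternative settings, namely with centring on the 75th percentile (adjusted p = 0.0459), a stricter filter on signal (0.0466) and 1 probe set per gene (0.0359), and over all 16 its adjusted p ran from 0.0359 to 0.352.

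Relb had a log2 change of 0.47 (95% interval 0.11 to 0.84, adjusted p = 0.123) under hydrogen peroxide. For 2 Nfkbia probe sets, 1449731_s_at and 1420088_at, the log2 changes were 0.31 (adjusted p = 0.0847) and 0.26 (adjusted p = 0.123). The probe sets 1438157_s_at and 1448306_at of the same gene gave 0.06 and -0.12, with 95% intervals of -0.15 to 0.27 and -0.36 to 0.11. The Nfkbiz probe set 1417483_at gave 0.17, with a 95% interval of -0.09 to 0.43. For Relb, those 4 Nfkbia probe sets and 1417483_at, the change that interleukin gave lies outside the interval of hydrogen peroxide. The same holds for Bcl3 and Nfkbiz 1448728_a_at. It also holds, by a narrow margin, for Nfkbia 1420089_at and the tested probe set of Nfkbib, which were not called. Such a reading leaves out the error of the interleukin change, and the direct comparison is given below.

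**Figure D2:**
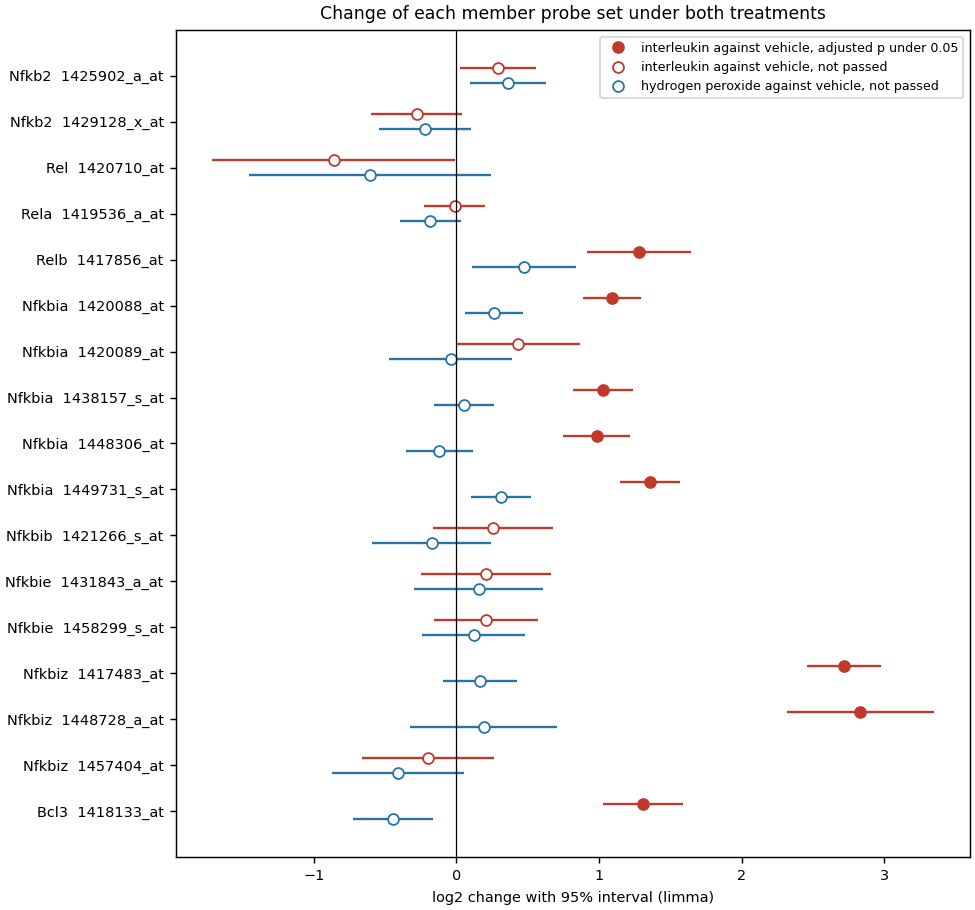
Log2 change with 95% interval from limma for each of the 17 tested member probe sets, interleukin against vehicle in red above and hydrogen peroxide against vehicle in blue below, filled where the adjusted p is under 0.05. The 8 filled points all belong to interleukin, and those of Nfkbiz lie farthest from 0, at 2.72 and 2.83.

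Interleukin against hydrogen peroxide tests the difference between the treatments directly. The 2 comparisons against vehicle share the vehicle arrays, whereas this one does not use them for its difference. Of 17 probe sets 8 were higher with interleukin and 0 lower, or 47.1%. Over all tested probe sets 8.82% were called in either direction, with 4.95% higher and 3.87% lower. Because of how the members were chosen, this excess is again no independent evidence. At an unadjusted p under 0.05 limma gave 10 higher and 0 lower, where 10.2% of all tested probe sets were higher and 13.6% lower at that level. The 8.82% was 3.73% without hydrogen peroxide array 2 and 3.18% with variances modelled without a trend, where 7 member probe sets were called in each. The genes called were again Relb, Nfkbia, Nfkbiz and Bcl3. Both interleukin arrays lay above both hydrogen peroxide arrays in 12 of the 17 and below in 0, a share of 70.6% where 51.7% of all tested probe sets did not overlap and 21.8% lay higher.

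Bcl3, with interleukin above vehicle and hydrogen peroxide below it, differed by a log2 of 1.75 ± 0.13 (SE, 3.36-fold, adjusted p = 1.65e-05). The difference was 2.55 ± 0.12 (adjusted p = 9.53e-07) and 2.64 ± 0.23 (adjusted p = 6.19e-05) in the 2 Nfkbiz probe sets that were called. The 4 called Nfkbia probe sets differed by 0.83 to 1.10, with adjusted p from 8.18e-05 to 0.000306. Relb differed least among the called genes, by 0.81 ± 0.16 (adjusted p = 0.0126). That call depended on single arrays and on the variance model. It was lost without hydrogen peroxide array 2 (0.64, adjusted p = 0.111), without interleukin array 1 (0.75, adjusted p = 0.0566) and with variances modelled without a trend on signal (0.81, adjusted p = 0.0580). Over its 15 alternatives the adjusted p ran from 0.00367 to 0.111.

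**Figure D3:**
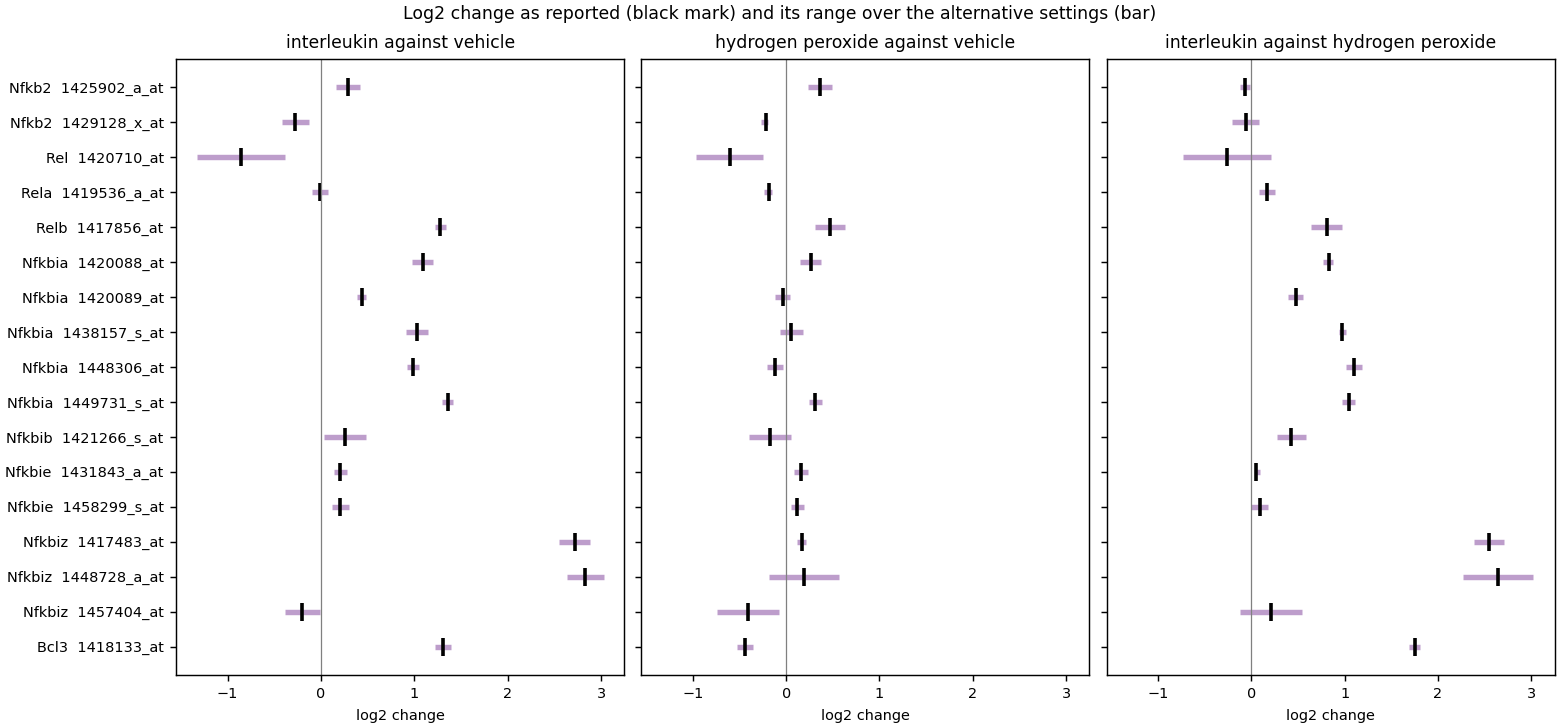
Log2 change of each of the 17 tested member probe sets as reported (black mark) and its range over the alternative settings (bar), for the 3 comparisons on a shared axis. The bars of Relb, Bcl3, 4 probe sets of Nfkbia and 2 of Nfkbiz stay above 0 in both comparisons of interleukin. So do those of Nfkbia 1420089_at, the tested probe set of Nfkbib and Nfkbie 1431843_a_at, which were not called. No bar of hydrogen peroxide against vehicle reaches 1.

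The genes around the members were read from 3 lists, by the brightest tested probe set of each gene. Over all 10892 genes so tested, 9.78% were higher and 6.61% lower with interleukin, and 4.08% and 2.91% with hydrogen peroxide. Between the treatments 6.30% of these genes were higher with interleukin and 4.06% lower. The first list held genes that carry the signal to NF-kappaB, such as the IkappaB kinases, TRAF adaptors and the ubiquitin ligase that marks the inhibitors. Of 22 tested, 2 (9.09%, near the share of all genes) rose, 0 fell and 20 did not pass with interleukin, with a median log2 change of 0.10 against 0.03 for all genes. With hydrogen peroxide 0 of the 22 passed in limma, and at an unadjusted p under 0.05 there were 3 higher and 1 lower, where 15.5% of all genes were higher and 9.51% lower at that level.

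The 2 that rose with interleukin were Birc3 and Rnf31. Birc3, a ubiquitin ligase of the TNF receptor complex and itself a known NF-kappaB target, read 4101.7 and 3936.9 with interleukin, 1748 and 1735.5 with hydrogen peroxide, and 1936.7 and 1781.8 with vehicle. Its log2 change was 1.11 ± 0.12 (SE, adjusted p = 0.000248). Rnf31, the catalytic subunit of the linear ubiquitin ligase, rose 1.84-fold (adjusted p = 0.0124). Both were also higher with interleukin than with hydrogen peroxide, by 1.21 and 0.79 (log2, adjusted p = 0.00019 and 0.0315). Among those that did not pass were the kinase subunits Ikbkb and Ikbkg, with log2 changes of 0.19 and 0.03 under interleukin.

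Other inhibitors and feedback regulators had 4 of 17 tested genes risen, 1 fallen and 12 not passing with interleukin. In either direction 29.4% passed, where 9.78% of all genes were higher and 6.61% lower. This list, like the members, was chosen with earlier results of these data known, so its share is no independent evidence. Tnfaip3, which encodes A20, a deubiquitinase that shuts off the pathway, read 3892.9 and 2573.2 with interleukin, 1066.4 and 1125.3 with hydrogen peroxide, and 726.8 and 947.7 with vehicle. The interleukin arrays were well above the rest, and the log2 change was 1.93 ± 0.21 (SE, adjusted p = 0.0002). Zc3h12a, an RNase that degrades cytokine messages, rose 2.16-fold (adjusted p = 0.0274) at low signal. Pdlim2, a nuclear ubiquitin ligase for p65, rose 1.65-fold and Rnf11, a partner of A20, rose 1.41-fold. Tax1bp1, an adaptor of A20, fell by 0.41 on the log2 scale (adjusted p = 0.0232).

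With hydrogen peroxide 1 of these 17 passed, Pdlim2, or 5.88%, where 4.08% of all genes were higher and 2.91% lower. The signal of Pdlim2 was 2816 and 2735 with interleukin, 2952.7 and 2596.7 with hydrogen peroxide, and 1727.2 and 1640.4 with vehicle. Both treated groups stood above vehicle and overlapped each other. The log2 change with hydrogen peroxide was 0.72 ± 0.13 (SE, adjusted p = 0.0116). Between the treatments 1 of the 17 passed, Tnfaip3, by 1.53 (log2, adjusted p = 0.0012). That too is 5.88%, where 6.30% of all genes were higher with interleukin and 4.06% lower. Neither count stands above the share of all genes.

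The third list held known NF-kappaB target genes. Of 21 tested NF-kappaB targets 16 rose (76.2%), 0 fell and 5 did not pass with interleukin, where 9.78% of all genes were higher and 6.61% lower. The median log2 change was 2.43, against 0.03 for all genes. The list was written with earlier results of these data known, so its direction is no independent evidence. The filter on mean signal also bears on the count and the median. Of 28 targets on the array 7 were too dim to test, and 4 of the 21 tested (Cxcl5, Il6, Lcn2 and Cfb) read below 193.7 on both vehicle arrays and passed the filter through higher signals in other groups. Of the other 17 targets 12 rose. The 5 of smallest p were Saa3, an acute-phase serum amyloid (log2 8.31), the monocyte attractant Ccl2 (3.04), the superoxide dismutase Sod2 (2.34), the iron-binding protein Lcn2 and the prostaglandin synthase Ptgs2 (3.14). No size is given for Lcn2, which read 9944.9 and 7014.4 with interleukin and only 85.9 and 39.3 with vehicle. All 21 log2 changes were above 0. The targets that did not pass were Bcl2l1, Mmp9, Irf1, Csf1 and Il1b, with log2 changes from 0.09 to 0.44.

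With hydrogen peroxide 4 of the 21 targets rose (19.0%), 0 fell and 17 did not pass, where 4.08% of all genes were higher and 2.91% lower. The median log2 change was 0.36, against 0.059 for all genes. At an unadjusted p under 0.05 limma gave 9 higher and 1 lower, where 15.5% of all genes were higher and 9.51% lower at that level. The 21 include the 4 targets dim with vehicle. Of these, Lcn2 and Il6 are among the 9 higher, and the 1 lower is Cxcl5, at 18 and 60.2. The targets that passed were Saa3 (1.08 ± 0.13 on the log2 scale, SE, adjusted p = 0.00199), Lcn2 (adjusted p = 0.0042), Tnfaip2 (1.49 ± 0.27, adjusted p = 0.0119) and Ptgs2 (0.77 ± 0.15, adjusted p = 0.0183). Lcn2 read 321.5 and 288.6 with hydrogen peroxide, against the dim vehicle signals given above, so its size is uncertain and is not given. Between the treatments 13 of 21 were higher with interleukin and 0 lower, where 6.30% of all genes were higher and 4.06% lower. Those 13 include all 4 targets dim with vehicle. Among promoters of the targets, 9 of the 20 genes with a window held the kappaB consensus, as did 7 of 15 feedback regulators and 3 of 20 signalling genes.

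**Figure D4:**
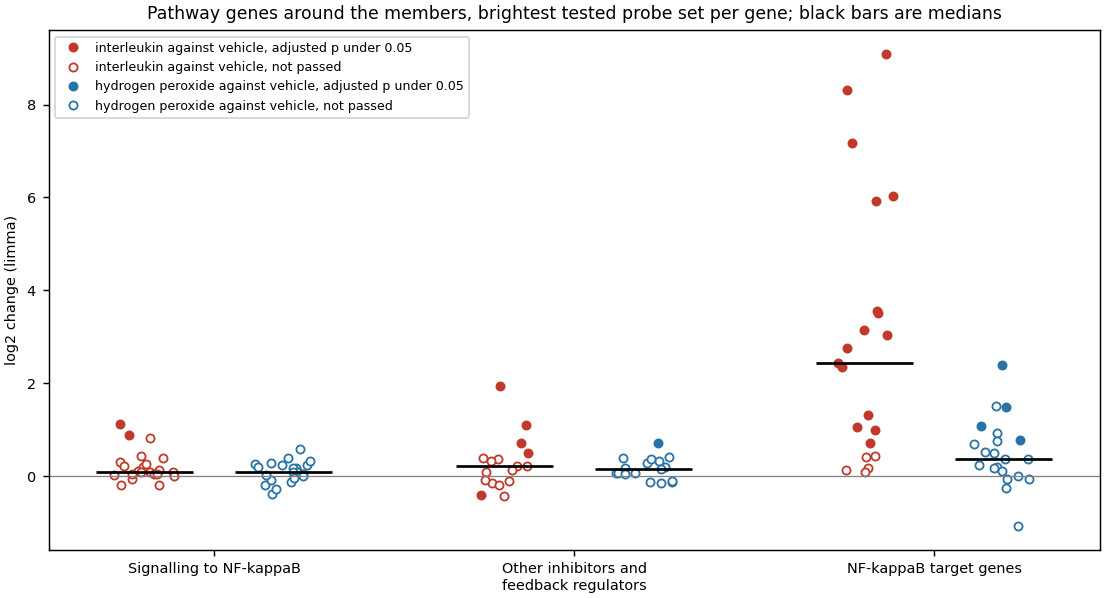
Log2 change of the tested genes of 3 lists, interleukin against vehicle in red and hydrogen peroxide against vehicle in blue, filled where the adjusted p is under 0.05, with black bars at the medians. The medians with interleukin are 0.10 for signalling genes, 0.21 for other inhibitors and feedback regulators and 2.43 for target genes, and with hydrogen peroxide 0.09, 0.16 and 0.36. The target medians include 4 genes that were dim with vehicle, and the lists were written with earlier results of these data known.

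Genes with the most similar profile were found by the root mean square difference of log2 signals over the 6 arrays, each probe set being centred on its own mean, among 10883 other genes. For Bcl3 these were Cd200, a membrane glycoprotein (0.052), the transporter Slc10a6 (0.093) and the lipoprotein lipase Lpl (0.095), where the median gene differed by 0.78. Cd200 had log2 changes of 1.42 with interleukin and -0.40 with hydrogen peroxide, beside 1.31 and -0.44 for Bcl3. For Nfkbia (1449731_s_at) they were Spats2l (0.053), the guanylate-binding protein Gbp7 (0.053) and the exonuclease Isg20 (0.060), where the median gene differed by 0.60. For Nfkbiz (1448728_a_at) they were less close, namely Phyh, a peroxisomal hydroxylase (0.30), Rasl11a (0.32) and Serping1, the inhibitor of complement C1 (0.33), where the median gene differed by 1.33. All 6 points of a profile share the arrays and their scaling, so these likenesses are a description.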

How the data were processed

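RNA of 6 samples was hybridised to Affymetrix mouse arrays. The deposited intensities are MAS5 signals per probe set, made by the authors per the submitters' processing notes. No MAS5 version was stated in these sources, and detection calls were not used. Of 45101 probe sets 64 controls were left out. Signals were log2 transformed with no pseudocount, and the 22519 probe sets at or above the median of mean log2 signal (geometric mean 193.7 or more) entered 1 linear model of all 3 groups (R 4.3.3, limma 3.58.1), with variances moderated along a trend on signal and p-values adjusted by Benjamini-Hochberg at a threshold of 0.05. Errors are SD over 2 arrays or moderated SE. Gene symbols are those of the array annotation after an update by RefSeq gene records (34741 of 34945 probe sets with 1 symbol matched, 932 had several and 9160 none listed).

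Members and lists were chosen with earlier results of these data known. Named genes were all members, up to 5 called genes of smallest p per list and comparison, and the 3 nearest profiles of the 3 members with the largest called change. Genes outside this rule (Ikbkb, Ikbkg, targets that did not pass or were dim with vehicle, markers) were named after their values were seen. The lists had 25, 20 and 28 genes. The 16 alternatives cover normalization, pseudocount, filter, variance model, arrays, probe sets and the replicate number. The steps were tested on simulated data.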

Additional observations from a re-analysis of the deposited data

How the results depend on the processing

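The number of member probe sets called was 8 for interleukin against vehicle, 0 for hydrogen peroxide against vehicle and 8 for interleukin against hydrogen peroxide. Leaving out each array in turn gave 8 to 8, 0 to 0 and 7 to 8. Over the same sets of arrays the share of all tested probe sets called ran from 6.90% to 15.9%, from 1.04% to 7.78% and from 3.73% to 8.52%. With no filter it was 5.98%, 1.69% and 3.24%. With the replicate number as a block the counts were 8, 0 and 8. Deviations of same-numbered arrays correlated at 0.107, 0.0535 and -0.129 between pairs of groups. With a single difference per group, these values cannot decide whether same-numbered samples were handled together, and the labels do not say. After removal of probe sets whose ID suffix marks matches to several transcripts, 8 member probe sets were left, and 5 were called in each comparison of interleukin. With 1 probe set per gene 9 were left, and 4 and 4 were called, fewer by construction. With hydrogen peroxide 1 was called, Bcl3, under 75th percentile centring, under the stricter filter (geometric mean 1514 or more) and with 1 probe set per gene.

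Changes of sign came only in probe sets that were not called, and all but one when single arrays were left out. Under interleukin against vehicle, Rela was 0.00070 after quantile normalization, 0.016 without vehicle array 2, and ran from -0.097 to 0.074 over the arrays left out. Under hydrogen peroxide against vehicle, the log2 change ran from -0.063 (without vehicle array 1) to 0.18 for Nfkbia 1438157_s_at and from -0.12 to 0.039 (without hydrogen peroxide array 2) for Nfkbia 1420089_at. It ran from -0.40 to 0.057 (without vehicle array 1) for Nfkbib, and from -0.18 (without hydrogen peroxide array 2) to 0.56 for Nfkbiz 1448728_a_at, which was -0.0081 without vehicle array 1. Between the treatments, it ran from -0.12 (without hydrogen peroxide array 1) to 0.54 for Nfkbiz 1457404_at, from -0.73 to 0.21 (without interleukin array 1) for Rel, from -0.20 to 0.088 (without interleukin array 1) for Nfkb2 1429128_x_at and from -0.00043 (without interleukin array 2) to 0.18 for Nfkbie 1458299_s_at. The cause was not tested. A group with 1 array left was assumed to vary like the others. Dim signals, as in Rel and 1 probe set of Nfkbib, limit what the arrays can show.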
